A study of Mus musculus with 2 samples.

Results

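The opioid system of the mouse forebrain was described across cell types from single-nucleus RNA sequencing, through the 4 genes of its receptors (Oprm1, Oprd1, Oprk1 and Oprl1) and 3 genes of its peptide precursors (Penk, Pdyn and Pnoc). The members were taken by gene symbol, and each of the 7 had its own row among the 31040 genes of the deposited count matrix. The study set mice given methamphetamine (METH, an amphetamine stimulant) against mice given saline. In the METH group, 2-month-old wild type C57BL/6 males received 5 mg/kg METH into the peritoneum for 14 days. Control mice of the same strain, sex and age received saline by that route for the same time, and the label writes their dose as 5 mg/kg saline. Prefrontal cortices of 3 mice made up each group, nuclei came from an iodixanol gradient, and each group gave 1 library made with 10x 3′ chemistry. Barcode suffixes told the 2 libraries apart, and no label said which suffix was METH and which was Control. No comparison of METH with Control was therefore made. Values are given for both libraries together and for each, under the names library 1 and library 2.

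Opioid peptides are cut from larger precursor proteins, stored in dense-core vesicles and released by neurons. Enkephalins come mainly from Penk, dynorphins from Pdyn and nociceptin from Pnoc. The mu receptor (Oprm1), the delta receptor (Oprd1), the kappa receptor (Oprk1) and the nociceptin receptor (Oprl1) all couple to inhibitory G proteins, which lower cyclic AMP, open potassium channels and close calcium channels. Enkephalins act chiefly on the mu and delta receptors, dynorphins on the kappa receptor and nociceptin on its own receptor. In the striatum, Penk is the textbook marker of projection neurons that bear the D2 dopamine receptor and Pdyn of those that bear the D1 receptor.

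After removal of barcodes with under 500 genes and of called doublets, 8003 nuclei of library 1 and 9999 of library 2 remained, with medians of 3047 and 2924 unique molecular identifiers (UMIs, each 1 captured RNA molecule). Barcode sequences were shared by the libraries in 154 cases. Clusters were made without the 7 members and named by marker genes as "like" a type, and those whose markers gave no clear name are called by their leading genes. Of 40 types and clusters, 34 held at least 50 nuclei and 100000 UMIs and entered the rankings. The tissue was labelled prefrontal cortex, yet it held neurons with striatal and claustral markers. The 610 nuclei called D1 projection neuron-like had Drd1 at 200.5 CPM and Drd2 at 19.8 CPM. The 440 nuclei called D2 projection neuron-like had Drd2 at 222 CPM and Drd1 at 16.3 CPM. CPM are counts of a gene's UMIs scaled to a fixed total of UMIs in the type, ranges in brackets are exact 95% Poisson intervals, and intervals of ratios are exact conditional ones. All of these cover counting error only. Free RNA in the droplets gives each type some UMIs of genes it does not express, so a type was counted as above free RNA where the lower bound of its level exceeded an estimate of that background.

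The members differed widely in the number of the 34 ranked types where they were above free RNA. Oprm1 was above free RNA in 27 types, Oprd1 in 17 and Oprk1 in 11, while Oprl1 passed in 15. Among the precursors, Penk passed in 16 types, Pdyn in 10 and Pnoc in 6. These numbers also depend on counts, since few UMIs give low lower bounds. Oprm1 had 5512 UMIs in all, Pdyn 742 and Pnoc 425. In 2 of the 7 members, Oprk1 and Penk, the highest type exceeded the next by at least 2-fold and was the highest in both libraries. Over the 15947 genes with at least 50 UMIs, 11.2% met the same rule. At 1.5-fold the rule took 3 of 7 members, Oprd1 being added, beside 18.4% of genes, and at 3-fold 2 of 7, beside 5.77%. The map of levels by type shows where each gene stood out.

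**Figure D1:**
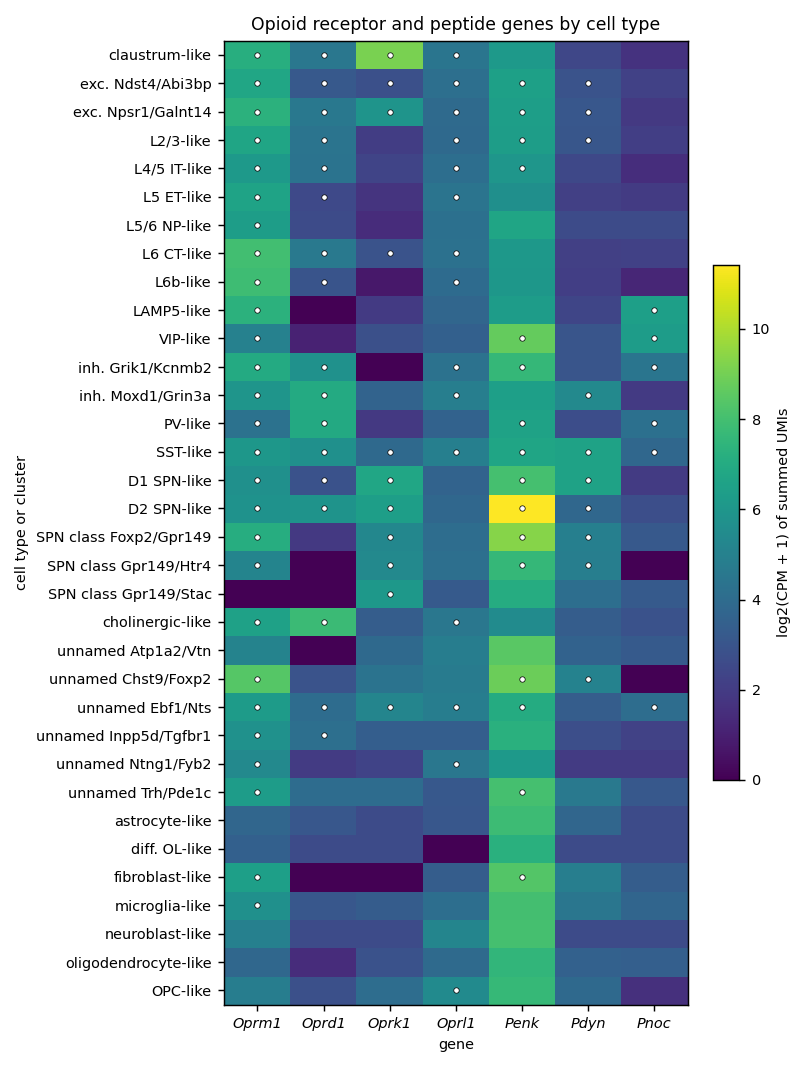
Levels of the 7 members (columns) in the 34 ranked types and clusters (rows), as log2(CPM + 1) of summed UMIs of both libraries, with a white dot where the level was above free RNA. Oprm1 carries dots in 27 rows and Pnoc in 6. The brightest cell is Penk in D2 projection neuron-like nuclei, and the brightest cell of the Oprk1 column is claustrum-like nuclei.

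Oprm1, the receptor of morphine and of beta-endorphin, was found across nearly all neurons and peaked in deep cortical layers and in a small unnamed cluster. It gave 5512 UMIs in 3733 nuclei, at 96.0 and 97.0 CPM of all UMIs in libraries 1 and 2. Its highest level was 340.5 CPM (254 to 447) in an unnamed cluster of 92 nuclei led by Chst9 and Foxp2, with 345 CPM in library 1 and 338 CPM in library 2. That cluster had Foxp2, a transcription factor, at 2383 CPM and Gad2, an enzyme of GABA synthesis, at 248.8 CPM. Next came layer 6 corticothalamic-like neurons with 248 CPM (229 and 268 CPM in libraries 1 and 2). The ratio of the unnamed cluster to them was 1.37 (1.02 to 1.81). Layer 6b-like neurons had 233 CPM (263 and 189 CPM in libraries 1 and 2), which did not differ from the corticothalamic-like level beyond counting error (corticothalamic over 6b, 1.07, 0.944 to 1.21).

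Other excitatory neurons held Oprm1 at lower levels. An excitatory cluster led by Npsr1 and Galnt14 had 160 CPM and claustrum-like neurons 141 CPM. Layer 2/3-like neurons had 103 CPM, layer 5 extratelencephalic-like neurons 95.8 CPM and layer 4/5 intratelencephalic-like neurons 69.4 CPM. The corticothalamic-like level was 3.58 times (3.26 to 3.93) that of layer 4/5 neurons, with ratios of 3.42 in library 1 and 3.72 in library 2. Among cortical interneurons, LAMP5-like nuclei, which include neurogliaform cells, had the most, with 159 CPM (155 and 164 CPM in libraries 1 and 2). Somatostatin-like nuclei had 64.2 CPM, VIP-like nuclei 31.4 CPM and parvalbumin-like nuclei 18.6 CPM. LAMP5-like nuclei were thus 5.08 times (3.31 to 8.04) the VIP-like level, and somatostatin-like nuclei 3.46 times (2.49 to 4.85) the parvalbumin-like level, and each library showed the same order. Striatal neurons of both kinds held similar levels, with 52.3 CPM in D1-like and 54.7 CPM in D2-like nuclei, and the interval of their ratio held 1 (0.956, 0.698 to 1.32). A related cluster of 110 nuclei led by Gpr149 and Stac gave 0 UMIs, which allows up to 30.6 CPM.

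Oprm1 also had a level of 51.2 CPM (35.4 to 71.5) in microglia-like nuclei, against an estimated free RNA level of 25.1 CPM, and 13.2 CPM in oligodendrocyte-like nuclei, against 20.7 CPM. The microglial value rested on 34 UMIs in 884 nuclei of low depth (median 694 UMIs, against 811 in oligodendrocyte-like nuclei). Oprm1 lies at chr10:6758506-7038198 on the plus strand (build GRCm38), and only 2.87% of its 280 kb is exonic. Ipcef1, on the opposite strand, covers 152 kb of it, or 54.5%. Ipcef1 had its highest level in the same corticothalamic-like neurons (177 CPM) and 45.1 CPM in microglia-like nuclei, but 4.81 CPM in parvalbumin-like nuclei. Whether the authors' counting used strand is not given in the sources used here, so reads of these overlapping genes may have been exchanged, and the Oprm1 levels are uncertain to that extent.

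Oprd1, the delta receptor and the preferred receptor of enkephalins, had a narrower pattern that was led by cholinergic-like neurons, with parvalbumin-like interneurons high in its order. The 53 cholinergic neuron-like nuclei, marked by Chat at 351 CPM and the choline transporter Slc5a7 at 729.5 CPM, had 216 CPM of Oprd1 (168 to 273), with 273 CPM in library 1 and 181 CPM in library 2. An inhibitory cluster led by Moxd1 and Grin3a followed with 126 CPM (129 and 123 CPM in libraries 1 and 2), and the ratio of cholinergic-like nuclei to it was 1.72 (1.16 to 2.57). Parvalbumin-like nuclei had 119.7 CPM (126 and 114 CPM in libraries 1 and 2). The Moxd1/Grin3a and parvalbumin-like levels did not differ beyond counting error (ratio 1.05, 0.750 to 1.44). Parvalbumin-like nuclei exceeded somatostatin-like nuclei, at 52.8 CPM, by 2.27-fold (1.81 to 2.86). This is the reverse of the order for Oprm1 in the same pair of types. LAMP5-like nuclei gave 0 Oprd1 UMIs, which allows up to 5.20 CPM, and VIP-like nuclei gave 1 UMI.

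Striatal neurons separated by Oprd1. D2-like nuclei had 56.4 CPM (80.0 and 47.8 CPM in libraries 1 and 2), against 6.42 CPM in D1-like nuclei (12.8 and 4.49 CPM), a ratio of 8.78 (4.81 to 17.3). Excitatory types held little, for example 23.2 CPM in layer 6 corticothalamic-like and 19.2 CPM in layer 4/5-like neurons, and oligodendrocyte-like nuclei had 1.74 CPM.

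The starts of Oprm1 and Oprd1 are shown because these receptors for the same peptides were ordered oppositely in parvalbumin-like and somatostatin-like nuclei. Each window holds 250 bases upstream of an annotated RefSeq start (GRCm38.p6), chr10:6788320-6788569 on the plus strand for Oprm1, 1 of several starts, and chr4:132144487-132144736 on the minus strand for Oprd1. Sequences are written 5′ to 3′, and capitals mark CACGTG, an E-box.
Oprm1 upstream window: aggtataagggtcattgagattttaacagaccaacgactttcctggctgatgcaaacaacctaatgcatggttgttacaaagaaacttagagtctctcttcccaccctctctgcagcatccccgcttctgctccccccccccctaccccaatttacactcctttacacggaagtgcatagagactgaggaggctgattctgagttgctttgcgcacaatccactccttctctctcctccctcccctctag
Oprd1 upstream window: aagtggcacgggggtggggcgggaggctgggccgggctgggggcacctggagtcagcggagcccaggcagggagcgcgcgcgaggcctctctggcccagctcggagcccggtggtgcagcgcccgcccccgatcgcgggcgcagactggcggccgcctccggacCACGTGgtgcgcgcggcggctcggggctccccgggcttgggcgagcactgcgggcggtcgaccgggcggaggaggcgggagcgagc
The Oprd1 window was 80% G and C with 34 CpG pairs, which put it at the 98.8th percentile of 32851 such windows for G and C content, where the median was 52.4%. The Oprm1 window was 50% G and C with 4 CpG pairs. Both strands were searched for CACGTG, for the cyclic AMP element TGACGTCA and for TATAAA, and no match in the printed windows overlapped another. CACGTG was found in the Oprd1 window and in 6.02% of all windows. The other motifs, in 1.55% and 12.4% of all windows, were in neither printed window. The matrix holds no measurement of these sequences, so the match is a description only.

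Oprk1, the receptor of dynorphins, stood out in claustrum-like neurons. These 177 nuclei, marked by Nr4a2 at 450 CPM, Gnb4 at 355 CPM and Synpr at 894 CPM, had 553 CPM of Oprk1 (506 to 604), with 562 CPM in library 1 and 548 CPM in library 2. Next were D1-like nuclei with 107 CPM (128 and 100.1 CPM in libraries 1 and 2), so the claustrum-like level was 5.19 times theirs (4.42 to 6.11). Oprk1 led the genes of the claustrum-like cluster by fold although it was used neither to form nor to name it.

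D2-like nuclei had Oprk1 at 83.3 CPM, with 142 CPM (104 to 189) in library 1 and 62.3 CPM (47.1 to 80.9) in library 2, so the libraries did not overlap within counting error. The order of the D1-like and D2-like types accordingly changed with the library, with D1 over D2 ratios of 0.908 in library 1, 1.61 in library 2 and 1.28 (1.01 to 1.64) in both. Among excitatory types other than claustrum-like neurons, Oprk1 was highest in the cluster of 651 nuclei led by Npsr1 and Galnt14, with 58.5 CPM (59.7 and 57.7 CPM in libraries 1 and 2). That was 14.6 times (10.4 to 21.0) the 4.0 CPM of layer 4/5-like neurons, which were not above free RNA. Layer 6b-like neurons, which were rich in Oprm1, gave 1 UMI of Oprk1, and parvalbumin-like nuclei had 2.75 CPM. Somatostatin-like nuclei passed the free RNA level with 14.0 CPM. The excitatory Ndst4/Abi3bp cluster and layer 6 corticothalamic-like neurons passed it too, at lower levels than the Npsr1/Galnt14 cluster. The levels of each gene in its leading types are plotted by library.

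**Figure D2:**
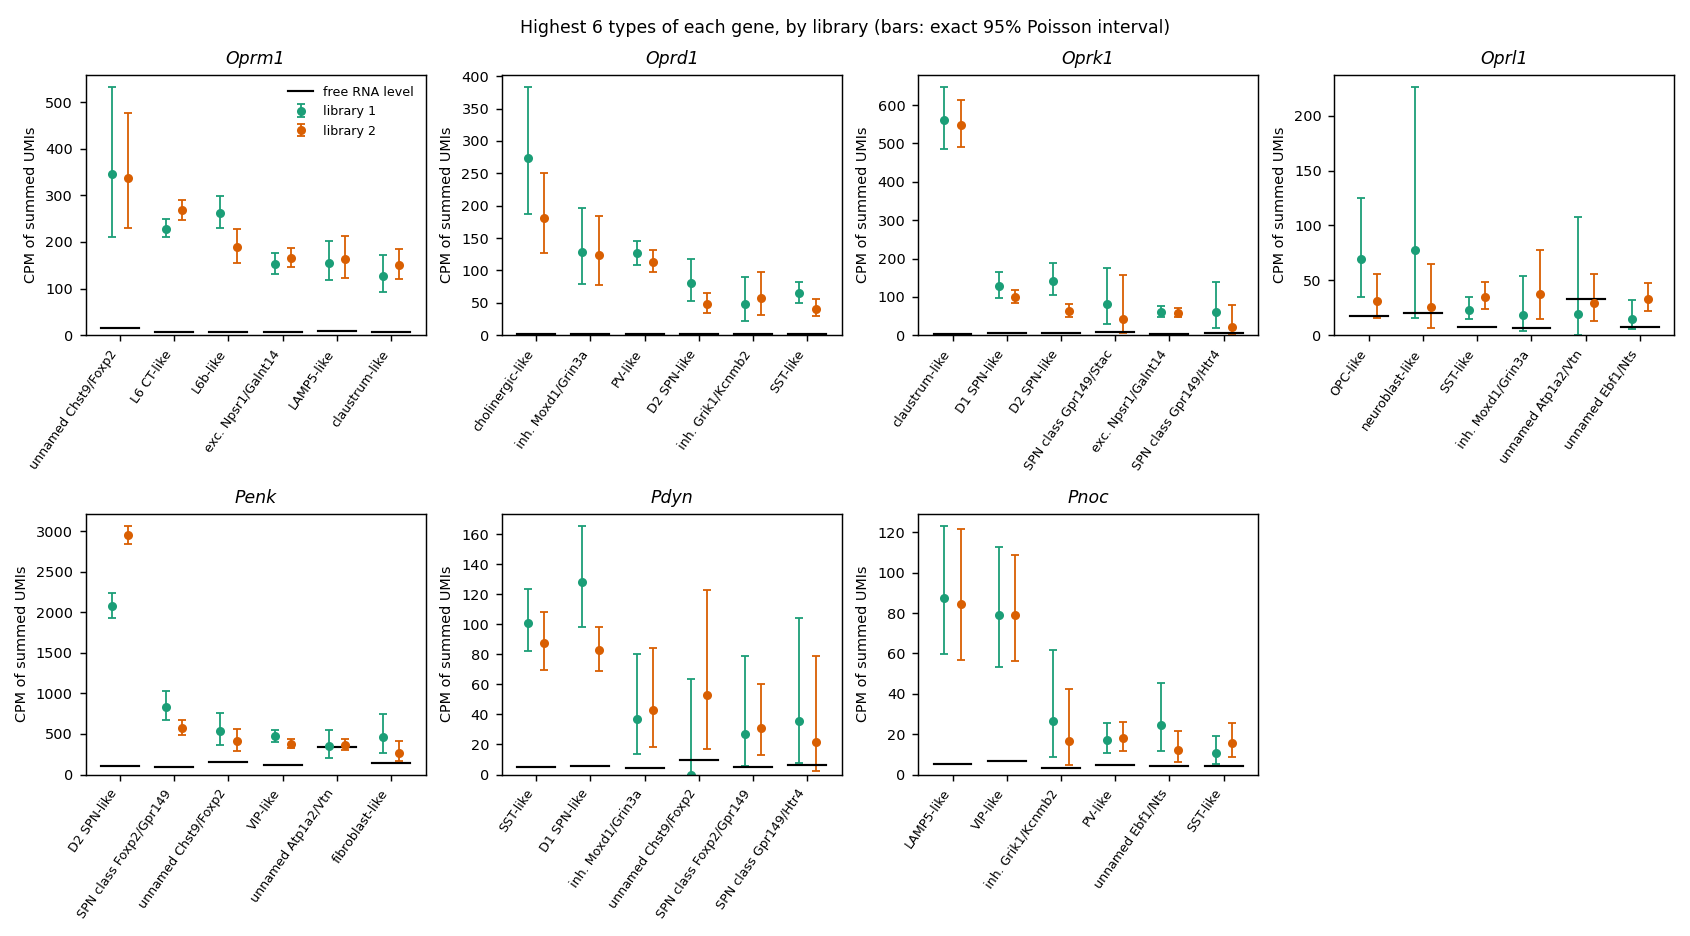
Levels (CPM of summed UMIs) of each member in its 6 highest types, for library 1 (green) and library 2 (orange), with exact 95% Poisson intervals and a black line at the estimated free RNA level. The libraries overlap for most types, while Penk in D2 projection neuron-like nuclei was 2080.1 CPM in library 1 and 2951 CPM in library 2.

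Oprl1, the nociceptin receptor, had no sharp site. Its ranked types had a median of 16.6 CPM and a maximum of 43.1 CPM (27.0 to 65.3), in oligodendrocyte precursor-like nuclei, with 69.8 CPM in library 1 and 31.2 CPM in library 2. That value rested on 22 UMIs. Neuroblast-like nuclei followed with 35.6 CPM, and their interval (14.3 to 73.4) reached below free RNA. The ratio of these types was 1.21 (0.4995 to 3.36), and the highest type was not the same in both libraries. Among neurons, somatostatin-like nuclei had 29.0 CPM (22.9 and 34.9 CPM in libraries 1 and 2), parvalbumin-like nuclei 11.0 CPM, and layer 4/5-like neurons 16.7 CPM. No neighbours among the first 8 places in this order differed beyond counting error.

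Penk, the precursor of met- and leu-enkephalin, was concentrated in striatal neurons with the D2 receptor. D2-like nuclei had 2719.7 CPM (2628 to 2814), with 2080.1 CPM in the 118 nuclei of library 1 and 2951 CPM in the 322 nuclei of library 2. A cluster of 155 nuclei of the striatal class led by Foxp2 and Gpr149 followed with 650.6 CPM (836 and 571 CPM in libraries 1 and 2), and the ratio of D2-like nuclei to it was 4.18 (3.67 to 4.78). D1-like nuclei had 263 CPM (218 and 276 CPM), which D2-like nuclei exceeded 10.4-fold (9.44 to 11.4). The D1-like nuclei with Penk had more Drd2 than those without. It was 41.4 against 9.69 CPM in library 2 (ratio 4.27, 1.94 to 10.4), and 5 against 0 UMIs in library 1. How far nuclei with Drd2 made up the Penk level of the D1-like type was not tested. The unnamed Chst9/Foxp2 cluster, which led for Oprm1, had 458 CPM of Penk.

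Among types with cortical names, the level of Penk was highest in VIP-like interneurons, with 418 CPM (470 and 377 CPM in libraries 1 and 2) against a free RNA level of 114 CPM. They exceeded LAMP5-like nuclei, at 77.5 CPM and not above free RNA, by 5.40-fold (4.05 to 7.30). Penk was also above the estimated free RNA level in layer 2/3-like, layer 4/5-like, parvalbumin-like and somatostatin-like nuclei. The same held for the excitatory Ndst4/Abi3bp and Npsr1/Galnt14 clusters and the inhibitory Grik1/Kcnmb2 cluster. In the finer parvalbumin-like clusters read below, Penk was 27.3 to 69.8 CPM in library 1 and 108 to 183 CPM in library 2. In the finer somatostatin-like clusters it was 41.6 to 84.7 and 106 to 181 CPM. Both types were thus higher in library 2, as oligodendrocyte-like nuclei were, while VIP-like nuclei were not. Whether the free RNA estimate was too low for these types was not tested. Penk was the member with the most free RNA. Oligodendrocyte-like nuclei, which should lack it, had 92.1 and 275 CPM in libraries 1 and 2, and microglia-like nuclei had 128 and 355 CPM. Over both libraries, the oligodendrocyte-like level was 181 CPM, against a free RNA level of 199 CPM. The microglia-like level was 256 CPM (219 to 297), an interval that held its free RNA level of 244 CPM. Over all nuclei, Penk reached 231 CPM in library 2, against 85.0 CPM in library 1, and library 2 also held more D2-like nuclei. Fibroblast-like nuclei had 331 CPM (230 to 460), above a free RNA level of 142 CPM, on 35 UMIs in 69 nuclei.

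Pdyn, the dynorphin precursor, had a pair of sources at about the same level. Somatostatin-like interneurons had 94.2 CPM (101 and 87.3 CPM in libraries 1 and 2) and D1-like neurons 93.3 CPM (128 and 82.8 CPM). Their ratio was 1.01 (0.82 to 1.24), and the first place changed with the library, being held by D1-like nuclei in library 1 and by somatostatin-like nuclei in library 2. D1-like nuclei exceeded D2-like nuclei, at 13.1 CPM, by 7.14-fold (4.28 to 12.7), and somatostatin-like nuclei exceeded parvalbumin-like nuclei, at 5.50 CPM, by 17.1-fold (10.3 to 30.6). The Moxd1/Grin3a cluster came next with 40.0 CPM on 14 UMIs.

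Pnoc, the nociceptin precursor, was limited to interneurons among the types above free RNA, apart from an unnamed cluster led by Ebf1 and Nts. LAMP5-like nuclei had 86.0 CPM (87.2 and 84.7 CPM in libraries 1 and 2) and VIP-like nuclei 79.0 CPM (78.8 and 79.2 CPM). The ratio of LAMP5-like to VIP-like nuclei was 1.09 (0.76 to 1.56). Parvalbumin-like nuclei had 17.5 CPM and somatostatin-like nuclei 12.9 CPM, while layer 4/5-like neurons had 1.81 CPM and D1-like neurons 2.96 CPM, neither above free RNA.

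To compare shares of nuclei with a UMI across depths, each nucleus was thinned to 1000 UMIs and shallower nuclei were left out. This removed 2300 of the 3062 oligodendrocyte-like nuclei. Shallow clusters such as neuroblast-like nuclei (median 846 UMIs) also lost nuclei, and the striatal-class Gpr149/Stac cluster had a median of only 1073.5 UMIs. Oprk1 was seen in 40.1% of claustrum-like nuclei (exact binomial interval 32.8 to 47.7%), 9.84% of D1-like nuclei and 0.919% of oligodendrocyte-like nuclei. Penk was seen in 80.1% of D2-like and 26.5% of VIP-like nuclei, but also in 14.7% of oligodendrocyte-like nuclei. Against shares of 1.31% for Oprm1 and 0.394% for Oprd1 in oligodendrocyte-like nuclei, Oprm1 was seen in 20.5% of layer 6 corticothalamic-like nuclei, and Oprd1 in 18.9% of cholinergic-like and 8.03% of parvalbumin-like nuclei. Pdyn was seen in 8.52% of somatostatin-like and 8.03% of D1-like nuclei (oligodendrocyte-like, 1.05%), and Pnoc in 8.24% of LAMP5-like and 6.68% of VIP-like nuclei (0.919%). Oprl1 in oligodendrocyte precursor-like nuclei, at 2.34% (0.865 to 5.03%), was not separable from the 1.31% of oligodendrocyte-like nuclei. Unthinned, the shares were 85.3% for Oprk1 in claustrum-like nuclei (0.588% in oligodendrocyte-like nuclei) and 92.0% for Penk in D2-like nuclei (14.5%).

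Within a type, finer clusters also differed. Among the 610 somatostatin-like nuclei, 4 such clusters of 216, 126, 110 and 65 nuclei are compared here, and smaller ones are left out. Of these 4, Pdyn was highest in the 216 nuclei led by Gpc5 and Ano3, with 209 CPM (176 to 246; 213 and 203 CPM in libraries 1 and 2). The cluster led by Il1rapl2 and Cdh12 had 61.9 CPM, that led by Cort and Erbb4 21.3 CPM and that led by Hhip and Dach1 11.6 CPM. Oprd1 was 89.7 CPM (68.6 to 115) in the Gpc5/Ano3 cluster and 55.7 CPM (33.0 to 88.1) in the Il1rapl2/Cdh12 cluster, intervals that overlap, and in library 2 these were level at 67.7 and 68.6 CPM. Among the 4, Oprd1 was lowest in the Hhip/Dach1 cluster (5.81 CPM, on 1 UMI). Oprm1 was lowest in the Gpc5/Ano3 cluster (30.9 CPM) and highest in the Cort/Erbb4 cluster (98.5 CPM). In VIP-like nuclei the precursors were ordered differently over the clusters. Penk was 686 CPM in the Thsd7b/Grin3a cluster and 663 CPM in the Gpc6/Creb5 cluster, where Pnoc was 29.0 and 22.0 CPM. In the cluster led by Crh, the stress peptide corticotropin-releasing hormone, Penk was 397 CPM and Pnoc 148 CPM (106 to 201). In the Col25a1/Neto1 cluster Penk was 111 CPM (25.3 and 150 CPM in libraries 1 and 2), near the free RNA level given above for VIP-like nuclei. Pnoc was 75.3 CPM there (139 and 46.1 CPM in libraries 1 and 2).

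Receptors varied within types in the same way. In parvalbumin-like nuclei, Oprd1 was 206 CPM (170 to 247; 205 and 206 CPM in libraries 1 and 2) in the cluster led by Ralyl and Dcc, and between 86.6 and 136 CPM in another 3 clusters. A cluster of 74 nuclei led by Egfr and Pde3a had 0 UMIs, which allows up to 17.7 CPM. In D1-like nuclei, the Stk31/Fbn2 cluster had the most Oprk1 (152 CPM, 126 to 183), against 87.6 CPM (66.5 to 113) in the Il1rapl2/Coch cluster, the next. Its Pdyn (126 CPM, 102 to 154) and Oprm1 (76.9 CPM, 58.5 to 99.2) were also highest in both libraries together. These intervals overlapped those of the Nxph1/Slit2 cluster, at 90.7 CPM (68.2 to 118) and 55.5 CPM (38.2 to 77.9). In library 1 the order for Oprm1 was reversed, with 49.3 CPM in the Stk31/Fbn2 and 59.8 CPM in the Nxph1/Slit2 cluster. In D2-like nuclei, the Npas3/Nnat cluster had Oprk1 at 159.7 CPM (121 to 207) and Oprm1 at 84.1 CPM, while the Ldlrad4/Acvr1c cluster had 51.9 CPM (37.9 to 69.4) and 42.7 CPM. Penk ran the other way, with 2261 CPM in the Npas3/Nnat cluster and 2908 CPM in the Ldlrad4/Acvr1c cluster.

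**Figure D3:**
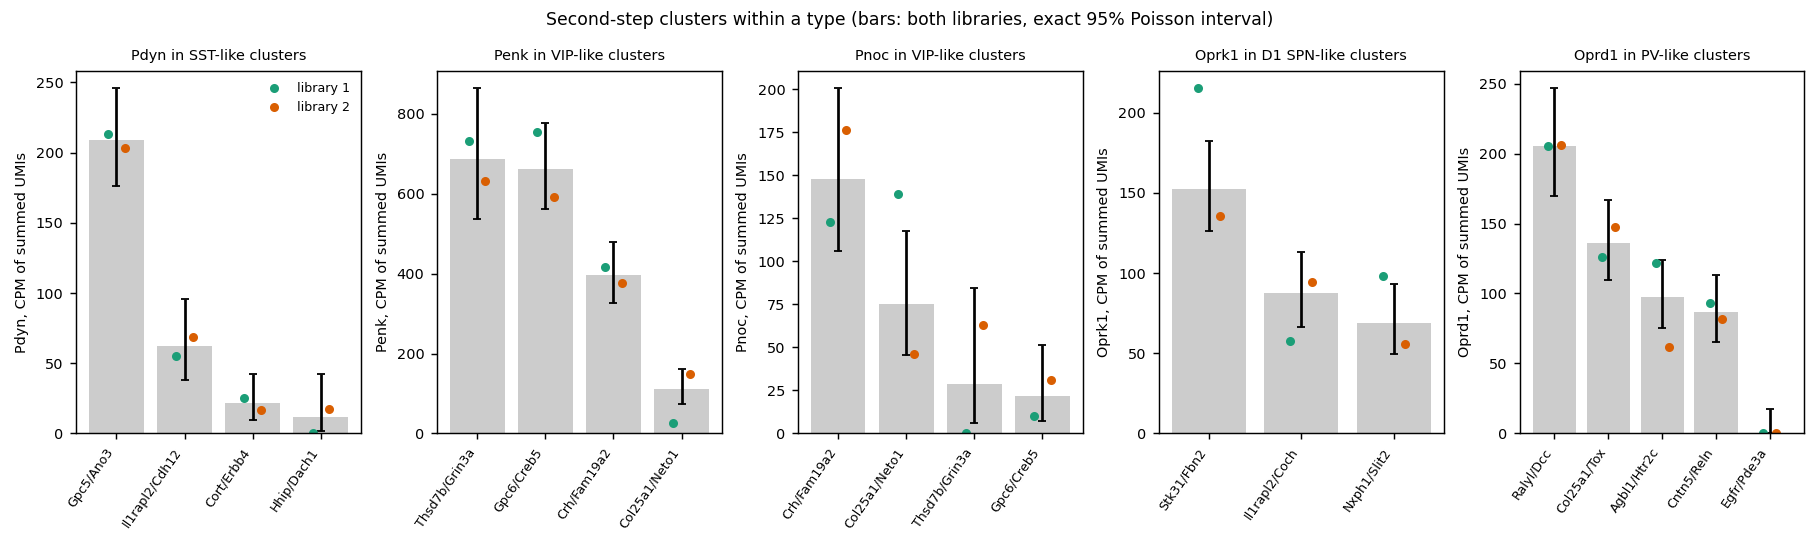
Levels (CPM of summed UMIs, bars, with exact 95% Poisson intervals) of 5 gene and type pairs in finer clusters of the type, named by leading genes. Points are library 1 (green) and library 2 (orange), and not every small cluster of a type is shown. Pdyn falls off outside the Gpc5/Ano3 cluster of somatostatin-like nuclei, and Oprd1 is at 0 in the Egfr/Pde3a cluster of parvalbumin-like nuclei.

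Set side by side, many types held both a peptide precursor and its receptor above free RNA, while no type was the highest for both genes of a pair. Of all 34 ranked types, 27 held Oprm1 above free RNA, 17 Oprd1, 11 Oprk1 and 15 Oprl1, while 16 held Penk, 10 Pdyn and 6 Pnoc. No overlap below is read as particular to its pair. All 16 types with Penk also held Oprm1 (59.3% of the 27 Oprm1 types), and 10 held Oprd1 (62.5% of Penk types and 58.8% of Oprd1 types). Pdyn and Oprk1 shared 7 types, which were 70% of the Pdyn types and 63.6% of the Oprk1 types. Pnoc and Oprl1 shared 3 types, 50% of the Pnoc types and 20% of the Oprl1 types. Claustrum-like neurons, the highest for Oprk1, were not above free RNA for Pdyn, and somatostatin-like neurons, a leading Pdyn source, had 14.0 CPM of Oprk1. D1-like neurons held both, with 93.3 CPM of Pdyn and 107 CPM of Oprk1. For the enkephalin pair, D2-like neurons held Penk with both Oprd1 and Oprm1, whereas VIP-like neurons held Penk with 1 UMI of Oprd1 and little Oprm1. Cholinergic-like neurons, the highest for Oprd1, had 43.8 CPM of Penk, at the free RNA level of 46.7 CPM. LAMP5-like and VIP-like neurons, which had the highest Pnoc levels, were not above free RNA for Oprl1.

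**Figure D4:**
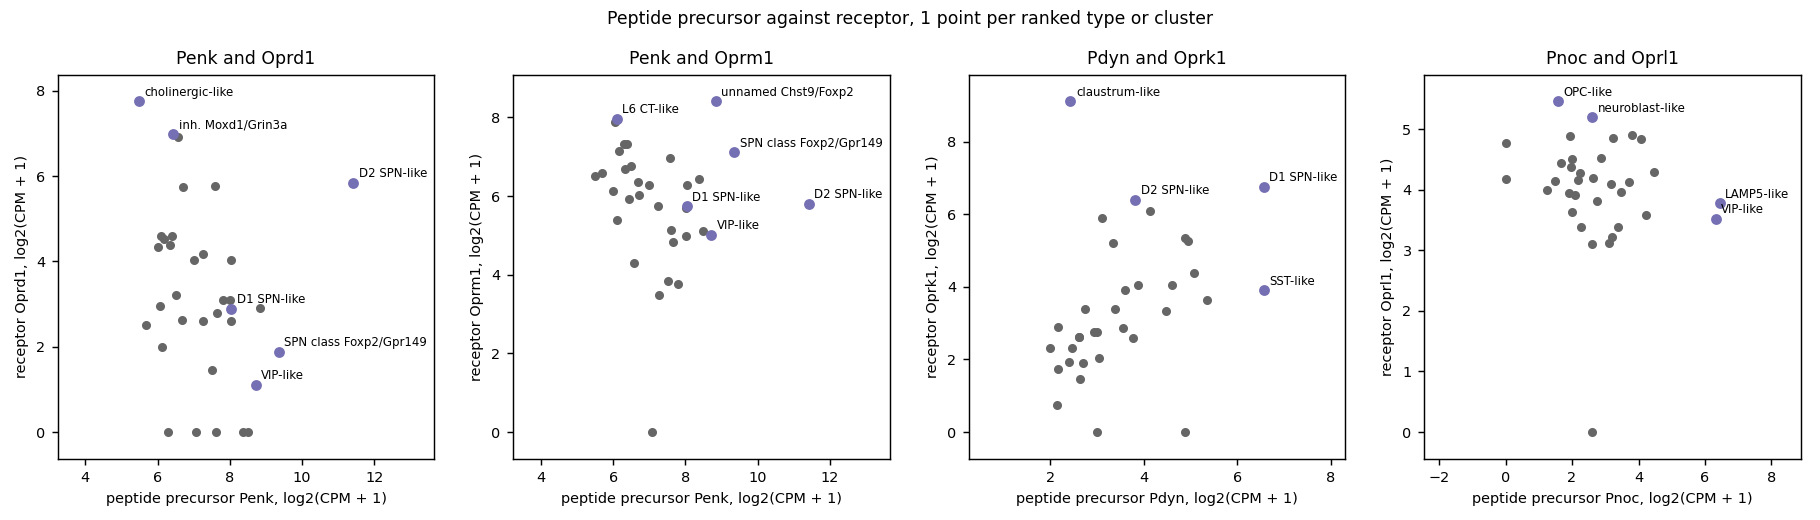
Level of a receptor (y axis) against that of its peptide precursor (x axis), both as log2(CPM + 1) of summed UMIs, with 1 point for each of the 34 ranked types and clusters and named types in purple. The types highest on the x axis are not those highest on the y axis in any of the 4 panels.

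Within single types, precursor and receptor could be followed in the same nuclei, as the level of a gene in nuclei with and without a UMI of the other. In D1-like neurons, the 123 nuclei with Pdyn had 153 CPM of Oprk1, against 94.1 CPM in the 487 nuclei without it (ratio 1.63, 1.199 to 2.19). The ratio was 1.17 (0.604 to 2.13) in library 1, an interval that held 1, and 1.83 (1.28 to 2.58) in library 2. In D2-like neurons, the 405 nuclei with Penk had 77.7 CPM of Oprk1, against 159 CPM in the 35 nuclei without it (ratio 0.487, 0.276 to 0.928). Within a library the ratio was 0.539 (0.255 to 1.27) in library 1 and 0.606 (0.243 to 1.95) in library 2, and both intervals held 1. In somatostatin-like neurons, nuclei with Oprd1 had 152 CPM of Pdyn, against 83.4 CPM in those without (ratio 1.83, 1.28 to 2.57). The ratio was 1.18 (0.696 to 1.91) in library 1, an interval that held 1, and 3.07 (1.83 to 4.99) in library 2. The Pdyn-bearing somatostatin-like nuclei were poor in Npy, the neuropeptide Y gene, with 926 CPM against 3113 CPM in those without Pdyn (ratio 0.297, 0.266 to 0.331), and both libraries showed this. In VIP-like nuclei, those with Pnoc had 538 CPM of Crh, against 166 CPM in those without, with ratios of 1.62 (0.944 to 2.69) in library 1 and 5.18 (3.50 to 7.67) in library 2.

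The mu receptor is the classic marker of striosomes, the patch compartment of the striatum, which is set in a larger matrix. Genes of both compartments were therefore read in striatal nuclei with and without Oprm1. In D1-like neurons, the 87 nuclei with Oprm1 had 266 CPM of the striosome gene Nnat, against 108 CPM in the 523 without (ratio 2.47, 1.88 to 3.22; 2.09 in library 1 and 2.75 in library 2). Sema5b (ratio 2.00, 1.12 to 3.43) and Bach2 (1.77, 1.18 to 2.60) pointed the same way in both libraries together and in library 2 (2.52 and 1.84), but in library 1 the ratios were 0.454 and 1.09, on 1 and 3 UMIs in nuclei with Oprm1. The intervals of the other 6 of 9 striosome genes (Tac1, Kremen1, Lypd1, Asic4, Kcnip1 and Nr4a1) held 1. Of 8 matrix genes, Calb1 was lower in nuclei with Oprm1 (ratio 0.655, 0.419 to 0.986; intervals that held 1 within each library) and the intervals of the other 7 held 1. The D1-like nuclei with Oprm1 also had less Drd1 (133 against 213 CPM) and more Penk (438 against 231 CPM), whose part in these ratios was not tested. In D2-like neurons, Nnat was 346 CPM in the 59 nuclei with Oprm1, against 159 CPM in the 381 without (ratio 2.18, 1.59 to 2.95). Id4, another matrix gene, was lower there (ratio 0.343, 0.109 to 0.830), on 5 UMIs, with 0.795 in library 1 and 0.244 in library 2. The other 8 striosome genes and 7 matrix genes had intervals that held 1 in D2-like neurons. These intervals are not adjusted for the number of genes read. No share of all genes whose interval excluded 1 in the same split is given. The counts of striosome and matrix genes are therefore not read as particular to a compartment. Medians of UMIs per nucleus were similar in nuclei with and without Oprm1, at 3117 and 3094 in D1-like neurons and 2735 and 2659 in D2-like neurons.

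Genes that make, cut and relay opioid peptides were read as 5 lists and by the same 2-fold rule, which 11.2% of all genes met. No count below is read as particular to its list. Of 13 genes for other precursors and peptide processing, 1 was called, Cadps2, a factor of dense-core vesicle release, with 1178 CPM in claustrum-like neurons against 525 CPM in the next type. Pcsk5, a proprotein convertase, was highest in layer 6b-like neurons (521 CPM against 282 CPM), short of 2-fold, and Scg2, a granin, was 408 CPM in an unnamed cluster led by Trh and Pde1c, against 327 CPM in the next. None of 7 measured peptidases that degrade enkephalin was called. Mme, the enzyme neprilysin, had 41.0 CPM in D1-like and 49.0 CPM in D2-like neurons, against 3.52 CPM in layer 4/5-like neurons. Ace and Ece2 rested on few UMIs in their highest types, at 37.8 CPM in fibroblast-like and 20.3 CPM in neuroblast-like nuclei.

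Of 27 measured G proteins, effectors and regulators, 3 were called: Grk5, a receptor kinase, in cholinergic-like neurons (348 CPM against 151 CPM), Arrb2, an arrestin, in microglia-like nuclei (408 against 114 CPM), and Rgs20 in astrocyte-like nuclei (1090.1 against 399.5 CPM). Rgs9, which speeds the shut-off of G proteins in the striatum, was shared by D1-like (752 CPM) and D2-like neurons (741 CPM). Gpr139, an orphan receptor, was highest in D1-like neurons at 17.3 CPM. Of 9 striosome genes 1 was called, Tac1, at 1899 CPM in the Gpr149/Stac cluster, which had no Oprm1 UMI, against 925 CPM in the next cluster. Sema5b was highest in the Foxp2/Gpr149 cluster (452 against 285 CPM) and Kcnip1 in VIP-like nuclei (525 against 506 CPM). Of 8 matrix genes 2 were called, Calb1 in the Moxd1/Grin3a cluster (452 against 173 CPM) and Id4 in astrocyte-like nuclei (560 against 203 CPM). Rasgrp2 was 213 CPM in D2-like against 187 CPM in D1-like neurons. The median ratio of highest to next type was between 1.13 and 1.34 in these lists, and 1.22 over all genes.

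Likeness of pattern was described by Pearson's r of log2(CPM + 1) over the 19 named types with at least 100 nuclei, among 10009 genes. These points share libraries and differ in depth, so r is a description. Oprm1 was most like Snap25 (r = 0.905), a synaptic vesicle fusion protein, then its overlapping neighbour Ipcef1 (0.863) and Rapgefl1 (0.858). Oprd1 was most like Ephx4 (0.692), Sema3a (0.654) and 1110032A03Rik (0.647). Oprk1 was most like Zc3h12c (0.838), Car12 (0.808) and Gm32647 (0.807). Adora2a (0.833) and Rasd2 (0.818), both known for expression in the striatum, were among the genes most like Penk. Pdyn was most like Unc13c (0.721), Calb1 (0.706) and Nrsn2 (0.694), and Pnoc most like Mrpl45 (0.830), Kcnmb2 (0.826) and Dlx1as (0.826), on 338 UMIs. The nearest genes of Oprl1 were Cdk7 (0.910), Psmb3 (0.892) and Chmp2b (0.881), all highest in neuroblast-like nuclei.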

How the data were processed

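The deposited UMI counts (whole numbers per gene and barcode, with no normalization stated per the file headers) came from nuclei of METH and Control mice, 1 library per group. Cell Ranger 1.3.0, Seurat 3.1.4 and mm10 stand in the submitters' processing notes, while the matrix header gives software version 3.1.0. The counting of introns and the use of strand are not given in the sources used here. The libraries held 31273163 and 35292937 UMIs on 9890 and 10876 barcodes.

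Barcodes with under 500 genes were removed, and Scrublet in Scanpy 1.11.5 marked 10.0% and 6.19% as doublets. Counts scaled to 10000, 3000 variable genes without the members and without Ttr and haemoglobin genes, 50 components and 20 neighbours gave 28 Leiden clusters at resolution 1 and 52 after a second round at 0.5. Names came from 194 markers in 30 lists, of which 164 were used, and are rebuilt names, not the authors'. The members and lists were chosen with earlier results of these data known, and details of the naming after the data were seen.

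Levels are CPM of the UMIs summed per type. The free RNA level of a type was the lower of its Slc17a7 level and its myelin gene level scaled to it, times the lowest ratio of any deep type's upper bound to that index, computed per library. As 1 pooled matrix has no replicate, no test was run. METH was not compared with Control, since no label assigns the libraries. The named genes are all members, the 3 genes of highest r for each (1 of them is not reported here), and up to 3 per list with the highest ratio of the highest to the median type; Mme, Crh, Npy and the called list genes Grk5 and Arrb2 are also given, chosen after their values were seen. Genes under 50 UMIs entered no count. Upstream windows were found for 4 of 7 members, and positions come from the GRCm38 annotation. The ratio intervals were run on simulated Poisson counts. That is the model they assume, so the run checks the calculation only and says nothing of spread between nuclei or mice. SciPy 1.17.1 gave the exact intervals.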

Additional observations from a re-analysis of the deposited data

How the results depend on the processing

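Values are log2 ratios of a member's highest to its next type, with the pair of types named in the text kept under every setting, unless named otherwise. Of 63 such values under other settings, 56 moved by less than their counting error, 7 moved further and 0 changed the sign of a called ratio. With Leiden resolution 2, Oprd1 was at 1.57 (0.78 in the text) and Pnoc at -0.52 (0.12 in the text). With the members allowed among the clustering genes, Oprd1 was at 1.76. In both of these, the Moxd1/Grin3a nuclei fell into the somatostatin-like type, with which Oprd1 was then compared. The next type for Oprd1 was then parvalbumin-like, with ratios of 1.85 and 1.82 (1.72 in the text). In library 1 alone, Oprk1 was at 2.13 (2.38 in the text), Penk at 1.32 (2.06 in the text) and Pdyn at -0.34 (0.01 in the text), and in library 2 alone Penk was at 2.37. The number of members called at 2-fold was 2, and 3 in library 1 alone or at 1.5-fold. Thinned to 500 UMIs, the shares were 9.43% for Oprd1 in cholinergic-like, 28.2% for Oprk1 in claustrum-like, 62.9% for Penk in D2-like, 5.08% for Pdyn in somatostatin-like and 4.10% for Pnoc in LAMP5-like nuclei. Chosen after seeing the data, the libraries were also read apart for co-detection. There the log2 ratio of Penk in VIP-like nuclei with to those without Pnoc was 0.15 in library 2 alone, against -0.58 in both and -1.89 in library 1, and that of Sema5b in D1-like nuclei with to those without Oprm1 was -1.14 in library 1 alone, against 0.998 in both. The cause was not tested. No paired analysis was possible because each group had 1 library and no test was made. Intervals cover counting error only and say nothing of spread between mice. Cluster names rest on rebuilt markers, the types of under 100 nuclei on few UMIs, and Oprl1, Pdyn and Pnoc each on under 1000 UMIs in the kept nuclei.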
